A study of Bos indicus with 11 samples.

Results

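Endometrial biopsies that held little smooth muscle were compared by how strongly they expressed genes of cell proliferation. Of the 11 cows in the series, 8 had under 80000 normalized counts in the joined row of the smooth muscle actins ACTG2 and ACTA2 and were taken as muscle-poor. In these 8 cows a proliferation score was computed as the mean log2(normalized count + 1) of the genes with a row among MKI67, TOP2A, CCNB1, CDK1, BUB1 and AURKB. The 3 cows with the highest score (P1631, NP2810 and P2396, the high-score cows) were compared with the 3 with the lowest (P1753, P904 and NP238, the low-score cows). MKI67 was not analysed here, so the score rests on 5 of the 6 genes. The groups were therefore selected on measured values of these genes. The score genes are given as a description with no test, and p-values for the other genes tell only how far they go with groups selected in this way. Cows NP856 and NP2541 lay between the groups, and the muscle-rich cows NP638, P1541 and P617 stayed out of the comparison.

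All animals were healthy multiparous Nelore cows (Bos indicus), each sequenced once, whose estrus had been synchronized with a prostaglandin F2α analogue before artificial insemination (AI). Biopsies were taken on day 6 after AI from the uterine horn opposite the ovary that carried the corpus luteum. Cows found pregnant on day 30 formed the P group (n = 6), the others the NP group (n = 5). The high-score and the low-score cows each comprised 2 P cows and 1 NP cow, and no group had received a treatment that another lacked. A biopsy holds luminal and glandular epithelium, stroma, vessels, leukocytes and, at times, muscle. In such bulk samples fewer cells of a type and less RNA per cell cannot be told apart.

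A cell that divides first licenses its replication origins and copies its DNA, and then condenses its chromosomes and separates them on a spindle. Transcripts of DNA replication are driven mainly by E2F factors around the start of S phase, whereas those of mitosis are switched on later by B-MYB and FOXM1. Cyclin-dependent kinases (CDK) and their cyclins move the cell through these steps, and CDK inhibitors and pocket proteins hold it back. In the cycling endometrium, proliferation of glands and stroma is governed by estradiol and progesterone.

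The reads on genes ranged from 9290949 to 12035561 in the high-score cows and from 10594830 to 11083269 in the low-score cows (two-sided exact permutation test, p = 0.8, where 3 against 3 cows cannot go below 0.1). Genes with at least 1 read numbered 16594 to 16829 and 16540 to 16819 (exact p = 0.7). The muscle actin row spanned 13869 to 71865 normalized counts in the high-score cows and 17427 to 72206 in the low-score cows (exact p = 1). The muscle actin row thus spanned like ranges in both groups, whereas the high-score cows held both the shallowest and the deepest of the libraries compared. Cow P1753 was the muscle-poor cow nearest to the limit of 80000, and the muscle-rich cow nearest to it was NP638, at 89878.

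The score was 8.91 in P1631, 8.12 in NP2810 and 7.91 in P2396. It was 7.79 and 7.71 in the cows between, NP856 and NP2541, and 7.21 in P1753, 7.18 in P904 and 7.13 in NP238. Just inside the upper border lay P2396 and just outside it NP856, close together, while a wider step separated NP2541 from P1753. The low-score cows lay close together, and P1631 stood above every other cow.

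TOP2A, the topoisomerase that untangles replicated chromosomes, had 855, 462 and 368 normalized counts in P1631, NP2810 and P2396, and 225, 203 and 137 in P1753, P904 and NP238, a 2.98-fold difference of the means. CDK1, the kinase that starts mitosis, had 196, 111 and 84.0 against 57.4, 66.1 and 58.7 (2.15-fold). These high-score and low-score cows did not overlap, as the rule made likely. BUB1, a kinase of the spindle checkpoint, had 138, 117 and 55.1 against 27.2, 44.1 and 29.3 (3.09-fold). AURKB, the kinase of the chromosomal passenger complex, had 252, 143 and 122 against 57.4, 47.9 and 70.8 (2.93-fold). Their high-score values likewise all lay above the low-score ones.

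CCNB1, which encodes the mitotic cyclin B1, did not follow the other score genes. It had 4388 normalized counts in P1631, 1922 in NP2810 and 3731 in P2396, against 3247, 2091 and 3055 in P1753, P904 and NP238. The groups overlapped, and NP2810 had the lowest value of the 8 muscle-poor cows. Over these 8 cows the correlation (Pearson's r on the log2 scale, a description with no test) of each score gene with the mean of the others was 0.21 for CCNB1 and between 0.83 and 0.94 for the other 4. In the muscle-rich cow P617 the CCNB1 row was at 32.8, while the other 10 cows had 1922 to 4388. The mean log2 level of 22 epithelium markers was 7.17 in P617 and 9.38 to 10.8 in the other cows, and its part in the CCNB1 values was not tested. With CCNB1 left out of the score, or with the mean of 177 cell cycle genes in its place, NP856 took the place of P2396 among the 3 highest cows. Under each of the other scores, which leave out TOP2A, CDK1, BUB1 or AURKB, the same 3 cows were highest. The 3 lowest cows were the same under every score.

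**Figure D1:**
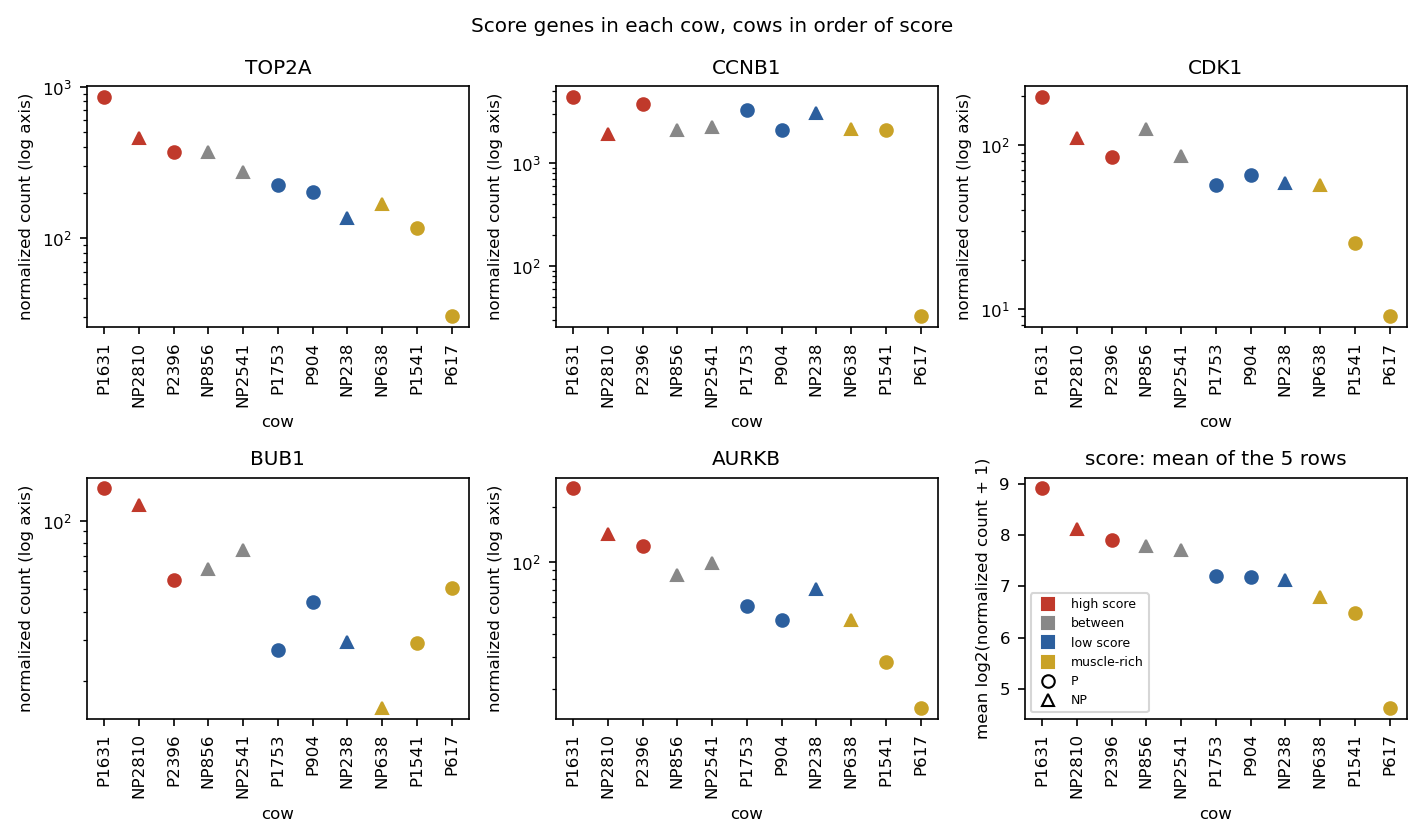
Normalized counts of the 5 score genes (log axes) and the score (mean log2(normalized count + 1)) in each of the 11 cows, ordered by score and coloured by group, with P cows as circles and NP cows as triangles. TOP2A, CDK1, BUB1 and AURKB separated the high-score from the low-score cows, whereas CCNB1 overlapped and was lowest in P617, at 32.8.

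The 15076 genes outside the score with a mean of at least 5 normalized counts over the 11 cows were compared between the 3 high-score and the 3 low-score cows with limma on log2(normalized count + 1). With limma, 0 genes (0%) had an adjusted p-value under 0.1 (Benjamini-Hochberg), and the smallest adjusted p-value was 1. At an unadjusted p under 0.05 there were 379 genes (2.51%), 269 of them higher and 110 lower in the high-score cows. Without any difference a share of about 0.05 would pass this level, so the count is no excess in this fit. On whole reads recovered from the table, edgeR (quasi-likelihood) called 0 genes and limma-voom 0, with 393 and 352 at an unadjusted p under 0.05. DESeq2 called 28, of which 20 were higher and 8 lower. Differences named from here on are therefore given as values and not as changes. The high-score and low-score cows did not overlap for 991 genes (6.57% of those tested), with every high-score cow above every low-score cow for 611 (4.05%) and below for 380 (2.52%). Without any difference, 3 against 3 values are free of overlap with a probability of 0.1, so this share is no excess either. Over all genes tested the median log2 difference, high minus low, was -0.01.

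Genes of the cell cycle were collected in 9 lists, of which 177 genes other than the score genes were tested. Every high-score cow lay above every low-score cow for 70 of them (39.6%, where 4.05% of all genes tested did so), and below for 2, among them SPC24. The median log2 difference of the 177 genes was 0.63, and 156 were positive. These genes belong to the programme that the cows were ranked on, so nothing is read from the excess over all genes. The mean log2 level of the 177 genes was 7.33, 6.96 and 6.65 in P1631, NP2810 and P2396, 6.71 and 6.56 in NP856 and NP2541, and 6.30, 6.37 and 6.06 in P1753, P904 and NP238. P1631 was the highest of the 8 muscle-poor cows for 101 of the 177 genes and NP2810 for 39, whereas NP238 was the lowest for 75. Of the 70 genes that separated the groups, NP856 lay above every low-score cow for 55 and NP2541 for 47. The muscle-rich cows lay below every high-score cow for 65 (NP638), 64 (P1541) and 59 (P617) of the 70 genes. They lay below every low-score cow for 18, 23 and 38, and above every low-score cow for 14, 16 and 17. The 70 genes were picked for high values in the high-score cows, so nothing is read from these counts.

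The separation differed between the steps of the cycle. Among the replication licensing and origin firing genes 3 of 19 lay above without overlap (median log2 difference 0.30), among the replication fork and DNA synthesis genes 7 of 22 (0.32) and among the nucleotide supply genes 3 of 12 (0.11). For the mitotic kinases and spindle checkpoint it was 10 of 17 (1.24), for the kinetochore and centromere 11 of 20 (1.01) and for the spindle, kinesins and cytokinesis 17 of 28 (1.21). Condensin, cohesin and chromatin genes gave 7 of 20 (0.48), cyclins, CDKs and transcription of the cycle 8 of 25 (0.58), and homologous recombination and repair 4 of 14 (0.81). The medians of the 3 mitotic lists were thus above those of the 3 lists of DNA synthesis. All 5 score genes are themselves genes of the G2 phase and mitosis, so the rule favours this order, and the difference between lists was not tested.

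**Figure D2:**
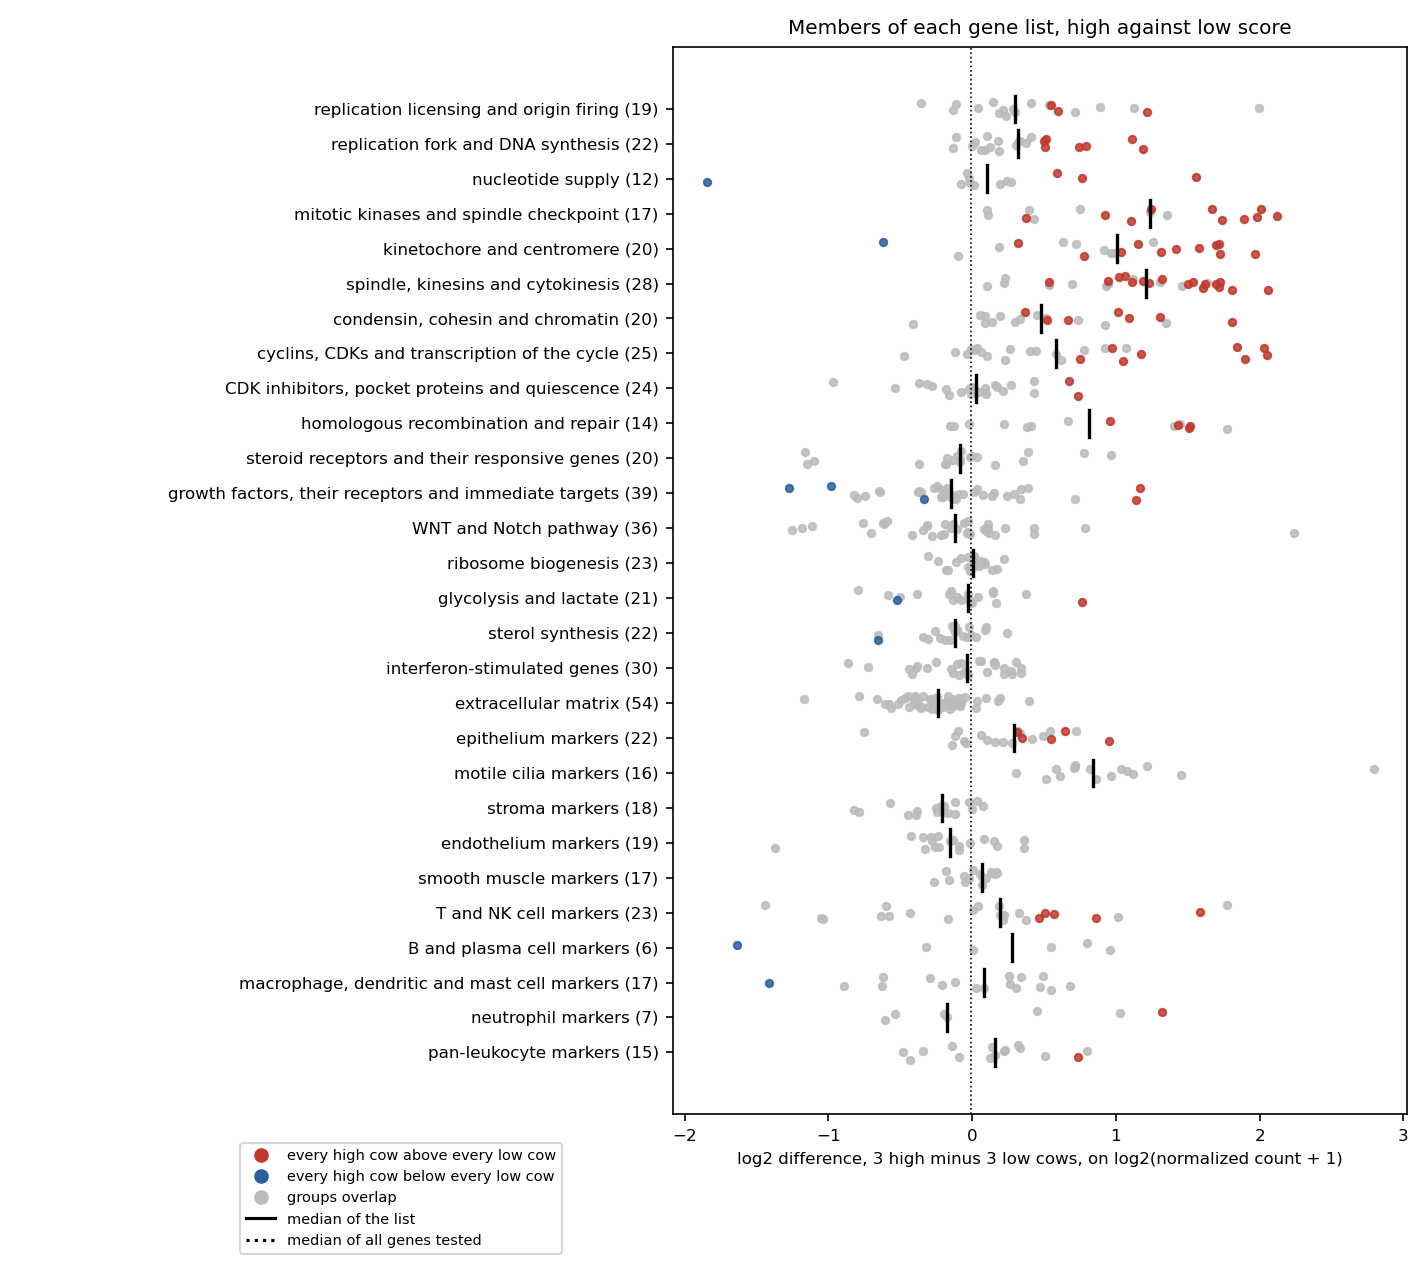
Log2 difference (3 high-score minus 3 low-score cows, on log2(normalized count + 1)) of each tested member of 28 gene lists, 1 point a gene, with the number of genes in brackets. Red points mark genes with every high-score cow above every low-score cow and blue points the opposite. The black bar of each list is its median, highest for the mitotic kinases (1.24) and near 0 for most lists outside the cell cycle.

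Of the licensing factors, MCM3, a subunit of the replicative helicase, had 314, 414 and 275 normalized counts in P1631, NP2810 and P2396 against 247, 265 and 174 in P1753, P904 and NP238. The origin recognition subunit ORC1 had 21.7, 28.5 and 18.4 against 14.1, 3.83 and 13.2. Both separated the groups, as did CDC45, a helicase cofactor (log2 difference 0.60 ± 0.33 SE). CDC6, which loads the helicase, had the largest log2 difference of this list (2.0 ± 0.72), but P904 (18.2) lay above P2396 (16.6). MCM7 had 1581 to 2024 counts in the high-score and 1318 to 1707 in the low-score cows, and the groups overlapped.

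At the replication fork, RPA3, the small subunit of the single-strand DNA binding complex, had 443, 582 and 410 against 287, 299 and 262, in a row joined with a second locus. The histone chaperone ASF1B (98.2, 47.9 and 58.6 against 36.2, 33.5 and 21.2) and the flap endonuclease FEN1 (404, 394 and 345 against 343, 248 and 229) also did not overlap. FEN1 did so narrowly, by P2396 over P1753. PCNA, the sliding clamp of the polymerases, is expressed in many cells outside S phase as well. Its groups overlapped, with a log2 difference of 0.34 ± 0.20.

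Of the genes of nucleotide supply, RRM2, the S-phase subunit of ribonucleotide reductase, had 243, 227.3 and 85.8 normalized counts in P1631, NP2810 and P2396 against 63.4, 79.5 and 35.4 in P1753, P904 and NP238. DUT, the dUTPase, and DCK, deoxycytidine kinase, differed by 0.76 ± 0.26 and 0.59 ± 0.22 on the log2 scale, again without overlap. Of the 12 genes of this list 7 had a positive and 5 a negative difference, and 1 lay below without overlap.

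Among the mitotic kinases and the spindle checkpoint, BUB1B (BUBR1), which delays anaphase until chromosomes are attached, had 198, 84.6 and 71.8 against 23.2, 36.4 and 21.2. UBE2C, the ubiquitin-conjugating enzyme of the anaphase-promoting complex, had 307, 196 and 89.3 against 53.4, 66.1 and 17.2, the largest log2 difference of the list (2.12 ± 0.64). AURKA, the spindle pole kinase, had 78.8, 81.5 and 50.8 against 35.2, 24.9 and 26.3. In these genes every high-score cow lay above the low-score cows, and P2396 was the lowest of the 3. CHEK1, the kinase of the replication checkpoint, and CDC20, an activator of the anaphase-promoting complex, differed by 1.10 ± 0.31 and 1.67 ± 0.53. The checkpoint protein BUB3 separated the groups with a small difference (0.37 ± 0.15). PLK1 overlapped between the groups (log2 difference 0.40 ± 0.30).

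At the kinetochore, CENPF had 522, 236 and 207 normalized counts in P1631, NP2810 and P2396 against 94.6, 85.3 and 86.0 in P1753, P904 and NP238. BIRC5 (survivin), a subunit of the passenger complex, had 419, 219 and 136 against 83.6, 78.6 and 51.6, and NDC80, which binds microtubules, 130, 49.9 and 46.4 against 14.1, 30.7 and 10.1. The means of these 3 genes differed by 3.63-fold, 3.62-fold and 4.13-fold. SPC24, a partner of NDC80 in the same complex, did not follow it, with 1115, 1018 and 1156 against 1288, 1671 and 2224. Like CCNB1, the SPC24 row was lowest in P617, at 35.0, where the other 10 cows had 509 to 2224.

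Of the spindle genes, ASPM, which organizes spindle poles, had 178, 57.1 and 65.6 against 23.2, 31.6 and 11.1 (4.57-fold). The motor KIF11, which pushes the poles apart, had 203, 102 and 82.3 against 37.2, 44.1 and 27.3, and KIF2C, a kinesin that removes tubulin, 82.2, 35.7 and 72.6 against 16.1, 18.2 and 19.2. ECT2, which opens cytokinesis, had 208, 150 and 146 against 86.6, 69.0 and 57.7, with both cows between the groups in the gap. All 28 genes of the list had a positive difference, from 0.10 to 2.06. The 11 members that overlapped did so in spite of this sign.

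UHRF1, which carries DNA methylation through replication, had 254, 205 and 171 normalized counts in P1631, NP2810 and P2396, 112 and 114 in NP856 and NP2541, and 68.5, 79.5 and 36.4 in P1753, P904 and NP238 (log2 difference 1.81 ± 0.36). The order of the 3 groups was complete for this gene. The condensin subunits NCAPG and SMC4 had 3 high-score values of 199, 144 and 96.3, and of 512, 375 and 293, above low-score values of at most 76.5 and 260. In homologous recombination, FANCD2 (32.0, 55.0 and 16.6 against 9.06, 9.58 and 12.1), the helicase BRIP1 (log2 difference 1.43 ± 0.53) and BRCA1 (0.96 ± 0.36) separated the groups.

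Among the factors that drive the cycle, CCNA2, the cyclin of S and G2 phase, had 119, 83.6 and 45.5 normalized counts in P1631, NP2810 and P2396 against 19.1, 26.8 and 15.2 in P1753, P904 and NP238 (4.06-fold). FOXM1, the activator of mitotic genes, had 57.1, 12.2 and 19.3 against 7.05, 5.75 and 3.03, and MYBL2, which encodes B-MYB, 162, 82.6 and 82.3 against 69.5, 46.9 and 43.5. P1631 alone set most of the mean of FOXM1. Cyclins E2 (CCNE2) and F (CCNF), the CDK-binding protein CKS2 and the E2F factors E2F1 and E2F7 also lay above without overlap, with log2 differences of 1.05, 2.03, 1.17, 0.75 and 1.84. CDK4, the kinase of early G1, had 1323 to 1679 against 1054 to 1350, and the groups overlapped (0.23 ± 0.16).

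**Figure D3:**
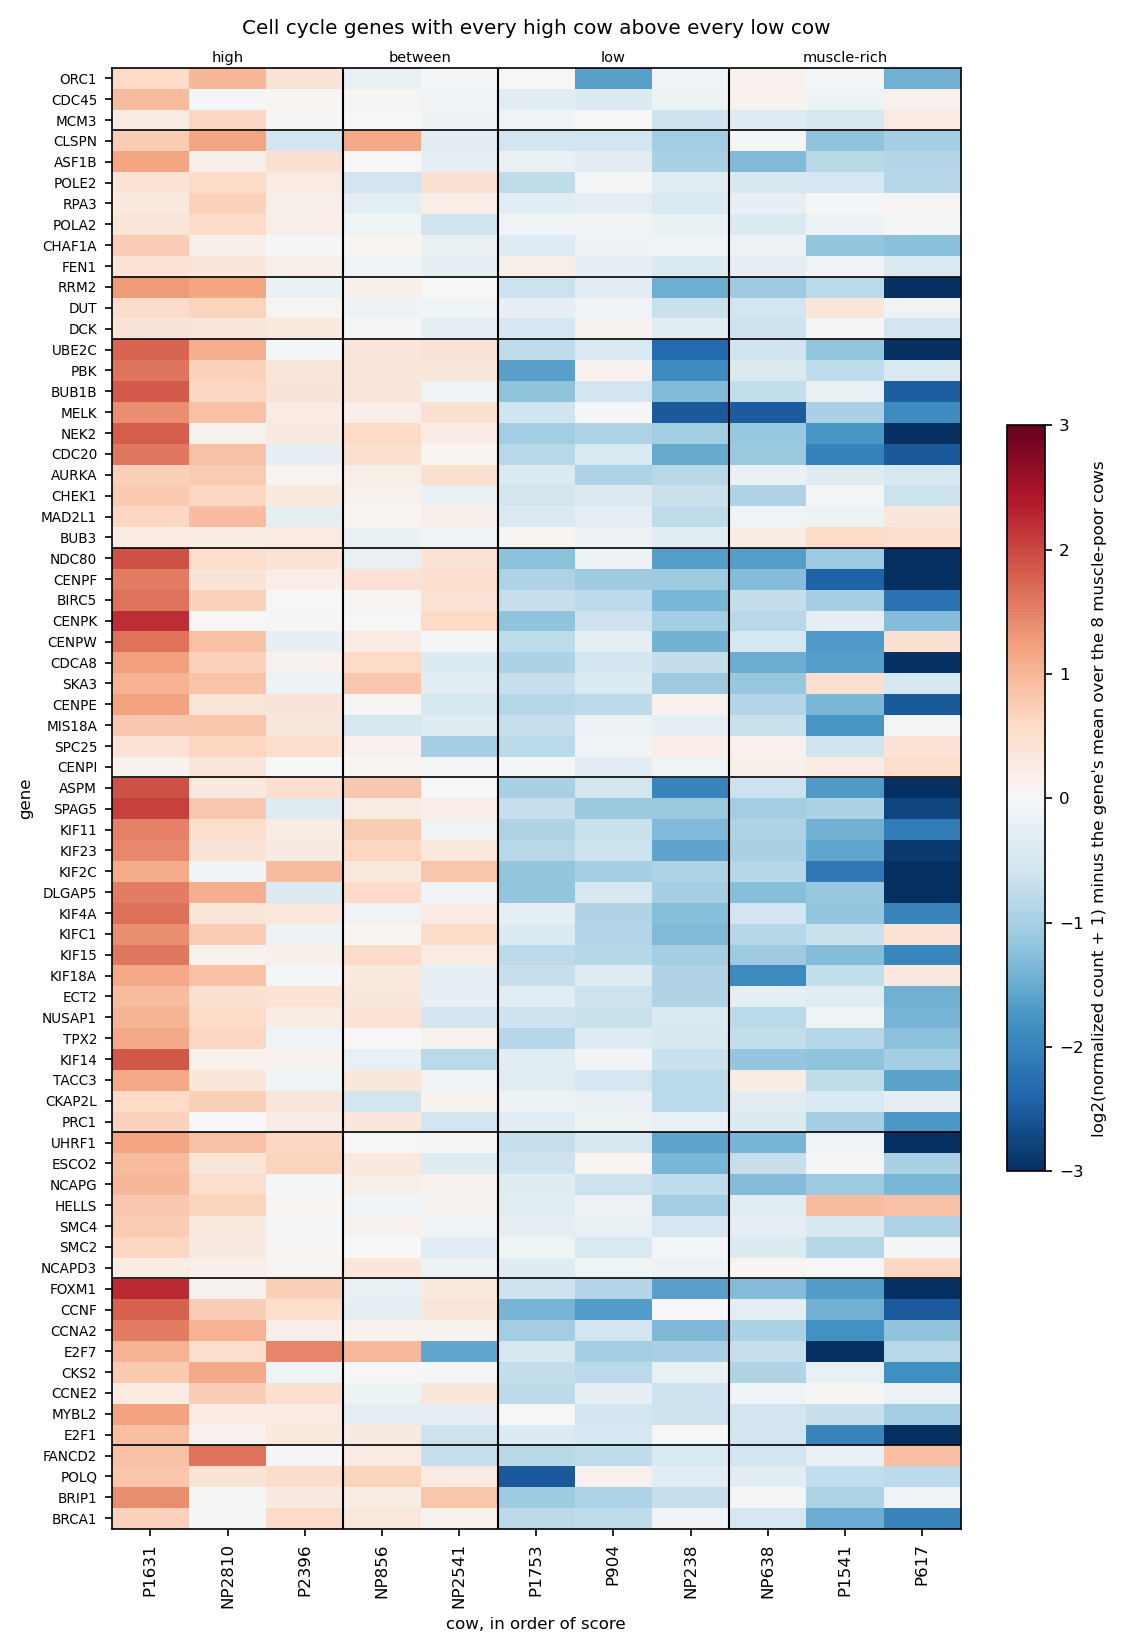
Log2(normalized count + 1) of the 70 cell cycle genes with every high-score cow above every low-score cow, each minus its mean over the 8 muscle-poor cows, in all 11 cows ordered by score. Red is above and blue below that mean, horizontal lines divide the lists, and red is deepest in P1631, the highest of the 8 muscle-poor cows for 101 of all 177 cell cycle genes.

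The genes whose log2 level was most like the score over the 8 muscle-poor cows (Pearson's r, a description that shares the cows and libraries of the ranking) were ARHGAP11A (0.98), RECQL4 (0.97), TCF19, SMC4, NCAPG, SPAG5 and TCTA (each 0.96 to 0.97), BIRC5, CCNA2 and NEK2 (each 0.95). ARHGAP11A, a GTPase-activating protein, had 143, 72.4 and 51.6 normalized counts in P1631, NP2810 and P2396, 48.4 and 54.9 in the cows between, and 33.2, 22.03 and 27.3 in P1753, P904 and NP238. RECQL4, a DNA helicase, had 81.1, 34.7 and 21.9, then 25.8 and 18.8, then 13.1, 16.3 and 12.1. Both were highest in P1631, with the cows between near P2396.

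CDK inhibitors, pocket proteins and markers of quiescence had a median log2 difference of 0.03. Of 24 genes 2 lay above without overlap (8.33%, against 4.05% of all genes tested) and 0 below (against 2.52%). These counts are too small to read a difference from all genes. CDKN1B, the inhibitor p27, had 1077, 1336 and 1052 normalized counts in P1631, NP2810 and P2396 against 1131, 1345 and 1401 in P1753, P904 and NP238. CDKN1A, the inhibitor p21, had 183, 154 and 327 against 78.5, 205 and 232. Both overlapped. The 2 genes without overlap were CDKN2C, the inhibitor p18 (447, 478 and 553 against 427, 380 and 157), and E2F5, a repressor of the E2F family (153, 165 and 133 against 69.5, 119 and 99.1).

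Of 20 steroid receptors and responsive genes 0 lay apart, where 6.57% of all genes tested did so, which leaves little to read from a list of this size, and the median log2 difference was -0.09. ESR1, the main estrogen receptor, had 1782, 780 and 3267 normalized counts in P1631, NP2810 and P2396 against 3158, 1246 and 1660 in P1753, P904 and NP238, so that both groups spanned a wide and shared range. PGR, the progesterone receptor, had 286, 284 and 362 against 483, 265 and 275. IHH, a signal that the epithelium sends to the stroma under progesterone, had 5307, 5508 and 5075 against 6387, 4106 and 2520. FOXA2, a factor of the uterine glands, had 480, 329 and 479 against 331, 281 and 161, where only NP2810 fell within the low-score range (log2 difference 0.78 ± 0.31).

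Of 39 growth factors, receptors and immediate targets, 2 lay above (5.13%, against 4.05% of all genes tested) and 3 below (7.69%, against 2.52%) without overlap, shares that rest on few genes. The median was -0.15, and -0.0032 with groups by the score without CCNB1. The growth factor HGF, in a row joined with a second locus, had 18.3, 57.1 and 23.6 normalized counts in P1631, NP2810 and P2396 against 57.4, 63.2 and 103 in P1753, P904 and NP238. The immediate early factor EGR1 (167, 178 and 127 against 252, 217 and 540) and the signalling inhibitor SPRY2 (217, 283 and 226 against 285, 331 and 294) were the other genes below. The receptor FGFR3 (130, 37.7 and 32.4 against 26.2, 22.03 and 24.3) and MYCN (17.1, 31.6 and 17.5 against 10.1, 13.4 and 5.06) lay above, FGFR3 mostly through P1631. WNT and Notch genes had 0 of 36 without overlap (median -0.12) and interferon-stimulated genes 0 of 30 (-0.04), against 6.57% of all genes tested.

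In growth metabolism the list medians lay between -0.12 and 0.0047. Of all genes tested 6.57% did not overlap, so the small counts below leave little to read. Ribosome biogenesis genes had 0 of 23 without overlap and a median of 0.0047, which was -0.0039 with TMM scaling and ran from -0.07 without NP2810 to 0.06 without P1753. In glycolysis 2 of 21 lay apart (median -0.03), the enolase ENO1 above (18045, 19067 and 14122 normalized counts against 8290, 10949 and 10935) and the phosphofructokinase PFKM below (290, 408 and 302 against 418, 423 and 597). In sterol synthesis and uptake 1 of 22 did so, below (median -0.12). Extracellular matrix genes had 0 of 54 without overlap, against 6.57% of all genes tested. Their median was -0.24 and 48 of the 54 were negative, and it ran from -0.57 without NP2810 to -0.06 without P1631 and was 0.0027 with groups by the score without CCNB1.

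The cell makeup of the biopsies was read from marker lists. The mean log2 level of 22 epithelium markers was 10.1 to 10.8 in the high-score cows and 10.1 to 10.3 in the low-score cows, and 5 of the 22 (22.7%, where 4.05% of all genes tested did so) separated the groups, all above. KRT19, an epithelial keratin, had 2539, 1891 and 1426 normalized counts in P1631, NP2810 and P2396 against 1164, 877 and 922 in P1753, P904 and NP238, the clearest of them (log2 difference 0.95 ± 0.23). The adhesion molecule EPCAM, the keratin KRT8, the tight junction protein CLDN3 and the splicing factor ESRP1 differed by 0.31, 0.35, 0.55 and 0.65. Of the 22 markers 6 had a negative difference, with GRHL2, an epithelial transcription factor, lowest at -0.75 ± 0.56. The median log2 difference of the 22 was 0.29. It ran from 0.13 without P1631 to 0.38 without NP2810, and was 0.15 with groups by the score without CCNB1. Every gene was also fitted with the epithelium level as a covariate. With this covariate limma called 0 genes. At an unadjusted p under 0.05 there were 455, 193 higher and 262 lower, where the fit without it had 269 and 110. Single cell cycle genes moved in either direction. The log2 difference went from 2.05 to 1.31 for FOXM1 and from 0.60 to 0.29 for CDC45. For CCNE2 it went from 1.05 to 1.21 and for RPA3 from 0.74 to 0.83. The part of epithelial cells in the cell cycle values was not tested.

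Of 16 motile cilia markers all had a positive difference, with a median of 0.84, but 0 separated the groups, where 6.57% of all genes tested did so. Their mean log2 level ran from 7.36 to 9.26 in the high-score and from 6.35 to 8.36 in the low-score cows, and the median was 0.29 without P2396. FOXJ1, the factor that defines ciliated cells, had 788, 436 and 2041 normalized counts against 305, 769 and 545. CCNO, which serves centriole amplification in these cells, had 15.99, 28.5 and 27.1 against 1.01, 20.1 and 0. Cilia and cell cycle levels thus had different leaders, P2396 for the first and P1631 for the second.

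The other marker lists overlapped between the groups in their mean levels. Median log2 differences were -0.21 over 18 stroma markers, -0.16 over 19 endothelium markers and 0.07 over 17 smooth muscle markers. Each list had 0 genes without overlap, against 6.57% of all genes tested, which leaves little to read from lists of this size. Leaving out 1 cow turned the sign of each of these medians, with ranges of -0.61 (without NP2810) to 0.03 (without P1631), -0.53 (without NP2810) to 0.09 (without P2396) and -0.41 (without NP238) to 0.61 (without P1753). For leukocytes the medians were 0.16 over 15 general markers, 0.19 over 23 of T and NK cells, 0.28 over 6 of B and plasma cells, 0.08 over 17 of macrophages, dendritic and mast cells and -0.18 over 7 of neutrophils. Without NP2810 the general, T and NK cell and macrophage medians were -0.02, -0.29 and -0.65, and without P2396 the neutrophil median was 0.64. NP2810 had the highest general leukocyte level of the 8 cows (7.62) and P1631 the lowest (6.69), so both extremes fell among the high-score cows. Red cell markers were below the minimum for testing.

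Single leukocyte genes separated the groups all the same, among them 5 of the 23 T and NK cell markers (21.7%, against 4.05% of all genes tested). CD7, a surface protein of T and NK cells, had 49.1, 25.5 and 41.1 normalized counts in P1631, NP2810 and P2396, 21.5 and 25.1 in NP856 and NP2541, and 10.1, 14.4 and 11.1 in P1753, P904 and NP238. CD96, LCK, KLRK1 and KLRD1 of the same list lay above with log2 differences of 0.86, 0.46, 0.57 and 0.50. In the same list 8 of 23 were negative, down to CD6, a T cell surface receptor, at -1.44 ± 1.16. Of the 15 general leukocyte markers 1 (6.67%) lay above without overlap, the lymphoid factor IKZF1 (5.71, 7.14 and 11.4 against 5.03, 3.83 and 4.05). Its gap between P1631 and P1753 was smaller than 1 read, which was worth 1.14 and 1.01 normalized counts in these cows. The B cell kinase BLK (1.14, 2.04 and 4.38 against 6.04, 12.5 and 10.1) and the mast cell tryptase TPSB1 (13.7, 87.7 and 49.0 against 108, 113 and 99.1) lay below. Several of these rest on few reads per cow.

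**Figure D4:**
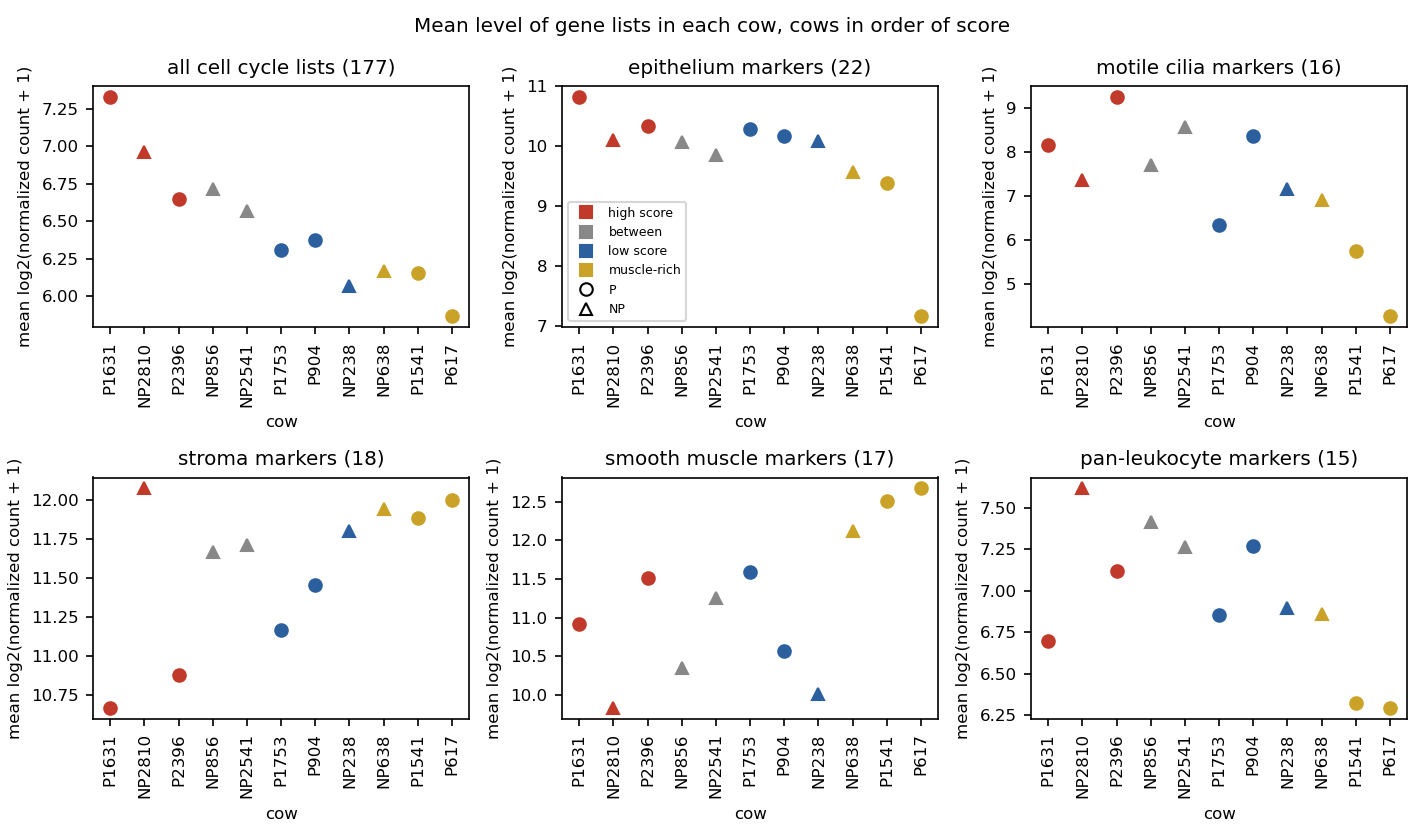
Mean log2(normalized count + 1) of the 177 cell cycle genes and of 5 marker lists in each of the 11 cows, ordered by score, with P cows as circles and NP cows as triangles. The cell cycle mean separated the high-score from the low-score cows, whereas every marker list shown overlapped between them, and epithelium and cilia levels were lowest in the muscle-rich cow P617.

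Outside all lists, the genes with the smallest p and no overlap are given in each direction, 12 higher and 12 lower, none of which passed with limma. DESeq2, which called 28 of all 15076 genes, called 16 of the 24, namely GPX2 (adjusted p = 2.70e-06), AIRE (adjusted p = 0.000156), NQO1, PROM2, CELA1, MGST1, TMEM178, SRL, METTL7A, the TUBB6 and TUBB3 row, ALOX12, PON3, MAT1A, RXRG, OPRK1 and TNFRSF10A. The 24 were picked on the same libraries, so these calls are no separate support. On the same reads edgeR and limma-voom called 0 genes. Enzymes that handle oxidants were among the higher ones. The glutathione peroxidase GPX2 had 1509, 1339 and 678 normalized counts in P1631, NP2810 and P2396 against 197, 262 and 118 in P1753, P904 and NP238 (6.11-fold, log2 difference 2.60 ± 0.39), and 159 and 124 in NP856 and NP2541. The quinone reductase NQO1 had 817, 876 and 820 against 358, 472 and 326, and the microsomal glutathione transferase MGST1 1214, 1509 and 1275 against 694, 717 and 500. For GPX2 and MGST1 the cows between lay with the low-score cows and not between the groups.

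AIRE, a transcriptional regulator best known from the thymus, had 39.97, 16.3 and 159 normalized counts in P1631, NP2810 and P2396, which is 35, 16 and 182 reads, and 22.6 and 76.8 in NP856 and NP2541. It was at 0 in the 3 low-score and the 3 muscle-rich cows. Against a floor of 3 reads in each low-score library (mean 2.98 normalized counts), the AIRE mean of the high-score cows (71.9) was at least 24.1-fold higher. P2396 set most of this mean, and NP2810, at 16.3, lay far less above the floor. PON3, a paraoxonase, had 4.57, 27.5 and 63.0 against 0, 0 and 1.01, but 166 in NP2541 and 1.08 in NP856. OPRK1, the kappa opioid receptor, had 65.1, 35.7 and 20.1 against 6.04, 0.958 and 5.06, and 4.30 and 0.784 in the cows between. These genes thus split the 8 cows in different ways.

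The elastase CELA1 (278, 288 and 315 against 141, 75.7 and 110) and KCNMB4, a subunit of a calcium-activated potassium channel (649, 758 and 753 against 447, 347 and 486), were nearly level among the high-score cows. METTL7A, TMEM178, MTFR2, a regulator of mitochondrial fission, and the joined row of the tubulins TUBB6 and TUBB3 differed by 0.92 ± 0.18, 1.30 ± 0.26, 2.49 ± 0.51 and 1.5 ± 0.32 on the log2 scale. MTFR2 was low throughout, at 18.4 to 33.1 counts in the high-score and 2.02 to 4.79 in the low-score cows.

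Among the lower genes, PROM2, a membrane protein of epithelial protrusions, had 48.0, 28.5 and 49.9 normalized counts in P1631, NP2810 and P2396 against 182, 107 and 237 in P1753, P904 and NP238, and its highest value, 382, was in NP856. MAT1A, which makes S-adenosylmethionine, had 14.8, 9.17 and 35.9 against 141, 158 and 56.6. The lipoxygenase ALOX12 had 98.2, 66.3 and 105 against 147, 380 and 802. In each of these the low-score cows had the larger SD of normalized counts along with the higher mean, so the SDs do not compare scatter alone.

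The retinoid X receptor RXRG (7.99, 14.3 and 26.3 against 37.2, 139 and 142) and TNFRSF10A, a receptor of the death ligand TRAIL (32.0, 30.6 and 57.8 against 196, 76.6 and 180), lay below as well. MSH3, of mismatch repair, had 354, 596 and 418 against 693, 734 and 794. SRL, NXPE4, USP6NL, ABHD2, KLK12 and GPR176 completed the lower genes, with log2 differences of -1.83, -1.38, -0.75, -0.76, -1.52 and -1.18.

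**Figure D5:**
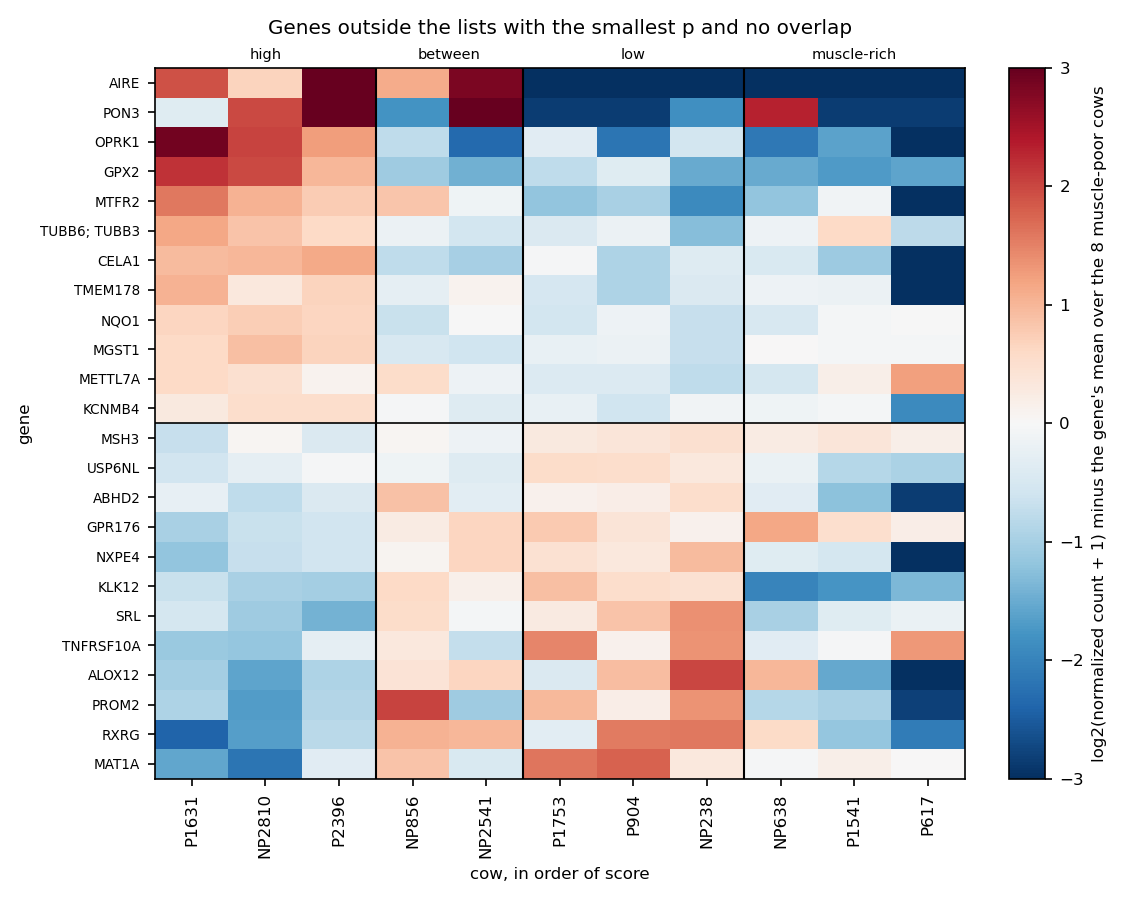
Log2(normalized count + 1) of the 24 genes outside the lists with the smallest unadjusted p and no overlap, 12 higher and 12 lower in the high-score cows, each minus its mean over the 8 muscle-poor cows. Columns are the 11 cows ordered by score, and for GPX2, CELA1 and MGST1 the 2 cows between the groups are as low as the low-score cows.

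The pregnancy outcome did not enter the ranking. Among the muscle-poor cows the score was 7.13, 7.71, 7.79 and 8.12 in the 4 NP cows and 7.18, 7.21, 7.91 and 8.91 in the 4 P cows. The means were 7.69 ± 0.41 (SD, n = 4) and 7.80 ± 0.82 (SD, n = 4), and the groups overlapped over most of their range (two-sided exact permutation test over 70 arrangements, p = 0.771). With all 11 cows the NP mean was 7.51 ± 0.54 (SD, n = 5) and the P mean 7.05 ± 1.45 (SD, n = 6; exact permutation test, p = 0.567), the difference in the opposite direction, with the muscle-rich cow P617 at 4.63. This cow is pregnant by its labels, while the study also lists it as non-pregnant. Without it the P mean was 7.54 ± 0.92 (SD, n = 5; exact permutation test, p = 0.968), above the NP mean as among the muscle-poor cows.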

How the data were processed

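RNA of 11 endometrial biopsies was sequenced, 1 library a cow. The authors filtered the reads with Seqyclean, aligned them with Bowtie2 2.1.0 to a masked bovine genome (UMD3.1), counted them per gene with HTSeq 0.5.4p2 and normalized the counts with DESeq2 1.12.1; the submitters' processing notes also name CASAVA 1.8.2. The deposited values are these normalized counts, a signal in which 1 read was worth 0.784 to 1.14. Dividing by that step gave whole reads (within 0.01) for 100% of values, and depth is the sum of those reads, 9290949 to 13569085 per cow. Whether counting used strand is not given in the sources used here, so rows with joined or overlapping symbols are uncertain. Symbols came from the table (18640 of 24616 rows); no genome was used.

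Cows were grouped by the pregnancy diagnosis in the labels and, for the comparison, by the score. The members and gene lists were chosen with earlier results of these data known. Genes averaging 5 or more normalized counts across all 11 biopsies were tested with limma 3.58.1 (R 4.3.3, empirical Bayes with trend) on log2(normalized count + 1), with Benjamini-Hochberg adjustment and a threshold of 0.1. Each cow is a separate animal, sampled once. The script was tested on simulated data. Alternatives were other pseudocounts, filters and scalings, each cow left out, covariates, a slope on the score, edgeR 4.0.16, limma-voom and DESeq2 1.42.0 on the recovered reads, and other scores. Named genes were 2 to 6 members a list with the smallest p or that define it, the 12 genes in each direction outside the lists with the smallest p and no overlap, and the 10 most like the score; further list members whose groups did not overlap were named after their values were seen. Some genes are not reported here.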

Additional observations from a re-analysis of the deposited data

Results flagged for a closer look

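In 68 checks for a sample far from the rest of its group, over 17 quantities, 2 values stood apart by Dixon's test at its 95% limit, which chance alone passes in about 1 group in 20. The log2(normalized count + 1) of CCNB1 was 5.08 in P617, far below the other 5 P cows. The mean log2 level of the epithelium markers was 9.85 in NP2541, below the other 3 muscle-poor NP cows, which lay at 10.1. NP2541 was in neither the high-score nor the low-score group, and P617 was not among the muscle-poor cows.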

How the results depend on the processing

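The number of genes called was 0 with limma under every alternative but 1: without a cow it ranged from 0 to 1, the 1 being JSP.1 without NP238 (adjusted p = 0.0965), which had 2415, 1884 and 1658 normalized counts in the high-score cows, 196 and 237 in P1753 and P904 and 2147 in NP238. DESeq2 called 28, of which 7 were in the cell cycle lists and 27 did not overlap between the groups. Genes at an unadjusted p under 0.05 numbered 208 (without NP238) to 1156 (without NP2810) with a cow left out, 623 with the leukocyte level as covariate and 606 with the score as a slope over the 8 cows. The 1156 are more than the share of about 0.05 that would pass without any difference, unlike the 379 of the main fit. Without NP2810 limma still called 0 genes. Genes without overlap numbered 1671 to 3492 with a cow left out, where fewer cows overlap less. With groups by the score without CCNB1, an alternative chosen after seeing the data, limma called 0 genes, 300 had an unadjusted p under 0.05 and 890 did not overlap. The score difference NP minus P was 0.456 with all 11 cows and ranged from -0.32 without P904 to 0.26 without P1631 (0.0728 without NP238), and was -0.03 with all cows but P617, an alternative added after seeing the data. Of 2354 pairs of a named gene and an alternative, 5 had the opposite sign, in 3 genes: ESR1 (-0.66 without P2396 to 0.37 without NP2810, with 0.20 without P1753 and 0.0436 with the leukocyte covariate), PGR (-0.24 without P904 to 0.19 without P1753) and CDKN1A (-0.056 without P1753 to 0.72 without NP238). The median of the cell cycle genes ran from 0.49 without P1631 to 0.78 without P2396, and that of the steroid receptor list from -0.25 without P904 to 0.14 without P1753. Of 19 lists outside the cell cycle, 13 had a median that turned sign when 1 cow was left out. Where a value moved, the cause was not tested. No paired analysis was possible because the cow numbers in the labels are not shared between groups. With 3 cows a side, a p that misses the threshold does not show that values did not differ.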

Other observations

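Because GPX2, NQO1 and MGST1 stood among the higher genes, other oxidant and detoxification enzymes were looked at in a list chosen after these values were seen. Of 28 listed genes 23 were tested. In 4 of them, GPX2, NQO1, MGST1 and the sulfiredoxin SRXN1, every high-score cow lay above every low-score cow, 0 lay below and 19 overlapped, with a median log2 difference of 0.22. Without the 3 genes that prompted the list, 1 of 20 lay above without overlap (5.0%), near the 4.05% of all genes tested. SRXN1 had 84.5, 45.9 and 65.6 normalized counts in P1631, NP2810 and P2396 against 42.3, 22.99 and 45.5 in P1753, P904 and NP238. The gap between NP2810 and NP238 was smaller than 1 read, which was worth 1.02 and 1.01 normalized counts in these cows. SRXN1 thus hardly separated the groups.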
